A study of Homo sapiens with 9 samples.

Results

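The cyclins, their kinases and the transcription factors that set their timing were followed through knockdown of TRIB3 in HepG2 cells. The set held 44 genes, chosen by symbol from the deposited expression table: cyclins, cyclin-dependent kinases (CDKs), CDK inhibitors, CDC25 phosphatases, E2F factors, RB family genes and MuvB genes. A row was found for 44 of 44 symbols, out of 24204 symbols in the table. HepG2 is a human liver cancer cell line, and TRIB3 encodes a pseudokinase that is induced by nutrient stress. Transcript levels were measured by RNA-seq in 9 libraries that form 3 groups of 3.

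Cells of the first group, shCtrl, carried a lentiviral control short hairpin RNA. Cells of the other groups carried a hairpin against TRIB3, shTRIB3-1 or shTRIB3-2. All cells were infected for 48 h and then selected with puromycin for 48 h, with no cloning step mentioned, and the controls share the infection and the drug. The labels name high-glucose DMEM with serum and mention no withdrawal of glutamine. The study's discussion likewise speaks of TRIB3 depletion with glutamine present, while its RNA-seq methods, written for more than this series, name glutamine-deprived cells. Nothing in the labels says that the replicates were separate cultures, and the p-values then measure only the spread between these libraries, which may be technical.

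A cell commits to division when D-type cyclins with CDK4 and CDK6, and then E-type cyclins with CDK2, phosphorylate RB and its relatives and free the E2F factors to switch on genes for DNA synthesis. A-type and B-type cyclins with CDK2 and CDK1 carry the cell through S phase and into mitosis. The MuvB core (LIN9, LIN37, LIN52, LIN54 and RBBP4) takes part on both sides of this switch. With RBL1 or RBL2, E2F4 and a DP protein it forms the repressor DREAM, and with MYBL2 and FOXM1 it activates the genes of G2 phase and mitosis. In adult liver most hepatocytes rest outside the cycle, and liver cancer lines such as HepG2 divide in culture.

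The hairpins are shown because the groups differ by them. Both target sequences are given as the study's supplementary sequence list has them, 5′ to 3′, and each matched only TRIB3 among annotated human transcripts.
shTRIB3-1: tggatgacaacttagataccg
shTRIB3-2: gccgtgctcttccgccagatg
The shTRIB3-1 target lies in exon 2 of TRIB3 (chr20:388072-388092, GRCh38, plus strand, transcript ENST00000217233.9) and the shTRIB3-2 target in exon 3 (chr20:391473-391493), both within the coding sequence.

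Promoters are shown for 7 of the genes to let a reader see the sequences that E2F and MuvB complexes are known to bind. The RefSeq table (GRCh38.p14) held a window of 250 bases before to 50 bases after the start for 36 of the 44 genes. The RB1 window (chr13:48476200-48476499) lies well inside the gene, which starts at 48303744 on the plus strand. It held none of the motifs searched and is counted in the shares given here and below. The 250 bases before the start are printed, 5′ to 3′ on the strand of the gene, for 3 genes of the mitotic kinase (CCNB1, CCNB2 and CDK1), a CDK subunit (CKS2), E2F1, RBL1 and CDKN2B. Capitals mark the letters of 3 motifs on either strand: the E2F motif, the cell cycle homology region (CHR) to which LIN54 binds, and the CCAAT box. The E2F motif was searched as TTCCCGC, as TTGGCGC, as TTCGCGC and as TTGCCGC. The CHR was searched as TTTGAA and also in its variant spelling TTCGAA.
CCNB1 (chr5:69166900-69167149, plus strand): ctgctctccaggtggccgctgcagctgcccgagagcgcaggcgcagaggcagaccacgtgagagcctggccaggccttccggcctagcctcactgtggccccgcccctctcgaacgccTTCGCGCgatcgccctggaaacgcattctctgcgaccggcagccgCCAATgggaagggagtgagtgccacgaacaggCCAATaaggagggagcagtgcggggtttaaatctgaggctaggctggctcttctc
CCNB2 (chr15:59104896-59105145, plus strand): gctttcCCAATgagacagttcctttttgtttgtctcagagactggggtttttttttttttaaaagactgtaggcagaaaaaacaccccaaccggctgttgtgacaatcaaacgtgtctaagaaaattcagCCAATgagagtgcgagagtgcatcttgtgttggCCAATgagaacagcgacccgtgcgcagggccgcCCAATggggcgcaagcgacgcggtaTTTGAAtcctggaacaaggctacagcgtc
CDK1 (chr10:60778081-60778330, plus strand): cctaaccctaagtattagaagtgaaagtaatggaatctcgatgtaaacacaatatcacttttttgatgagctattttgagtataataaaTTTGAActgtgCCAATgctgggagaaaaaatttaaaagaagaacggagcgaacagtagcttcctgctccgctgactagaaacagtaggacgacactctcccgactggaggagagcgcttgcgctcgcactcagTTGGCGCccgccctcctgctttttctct
CKS2 (chr9:89310945-89311194, plus strand): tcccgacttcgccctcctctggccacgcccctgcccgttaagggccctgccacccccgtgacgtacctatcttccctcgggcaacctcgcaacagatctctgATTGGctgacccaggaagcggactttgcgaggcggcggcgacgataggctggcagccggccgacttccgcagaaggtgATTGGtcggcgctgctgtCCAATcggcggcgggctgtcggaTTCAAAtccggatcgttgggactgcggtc
E2F1 (chr20:33686386-33686635, minus strand): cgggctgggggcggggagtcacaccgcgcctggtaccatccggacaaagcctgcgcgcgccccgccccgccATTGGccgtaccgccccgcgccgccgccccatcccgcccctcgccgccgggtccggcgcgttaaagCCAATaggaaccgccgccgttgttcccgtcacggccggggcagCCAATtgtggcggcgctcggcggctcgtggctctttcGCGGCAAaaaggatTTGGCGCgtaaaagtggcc
RBL1 (chr20:37095998-37096247, minus strand): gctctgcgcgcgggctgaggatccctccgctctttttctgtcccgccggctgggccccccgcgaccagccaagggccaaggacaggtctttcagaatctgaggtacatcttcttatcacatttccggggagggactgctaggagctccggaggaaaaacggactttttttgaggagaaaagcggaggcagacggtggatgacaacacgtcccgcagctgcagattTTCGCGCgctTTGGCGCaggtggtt
CDKN2B (chr9:22009306-22009555, minus strand): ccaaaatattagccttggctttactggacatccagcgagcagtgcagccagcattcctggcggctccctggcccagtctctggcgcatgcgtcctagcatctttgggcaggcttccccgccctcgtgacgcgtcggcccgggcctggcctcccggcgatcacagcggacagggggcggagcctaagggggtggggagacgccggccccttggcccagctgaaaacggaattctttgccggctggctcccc
The CHR letters began 29 bases before the start in CCNB2 and CKS2, each with CCAAT letters upstream. RBL1 held E2F letters 25 and 15 bases before the start and none of the others, and CDKN2B held none of the 3 motifs. Across the whole windows, 38.9% of the 36 genes held E2F letters, against 21.2% of 9088 promoters of tested genes and 13.1% of all 27305 promoters of the same length. For CHR the shares were 22.2%, 11.2% and 16.6%, and for CCAAT 44.4%, 37.0% and 35.7%. Matches of different motifs, or of the same motif, can share bases. A letter match is a description of the sequence and no measure of binding in these cells.

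Depth was even, at 34206726 to 36311029 fragments a library. These totals and the fragments behind each gene were solved from the FPKM values (fragments scaled for gene length and for the mapped fragments of the library), of which 100% of 172769 above 0 came within 0.02 of a whole fragment. Replicates differed by more than sampling noise: chi-square per degree of freedom between replicates was 3.13 to 7.54. Of the hepatocyte markers, 10 of 10 were at 1 FPKM or more in every library, with a summed level of 8397 to 9049 FPKM in shCtrl, 8615 to 9054 in shTRIB3-1 and 10830 to 11140 in shTRIB3-2. Most of each sum was ALB, at 5213 ± 249.4, 5073 ± 177.2 and 6645 ± 66.07 FPKM in the same order. Other markers moved apart. TTR stood at 27.92 ± 2.59, 59.16 ± 0.667 and 91.52 ± 1.37 FPKM, and FGB at 195.5 ± 11.5, 103.3 ± 4.87 and 141.4 ± 3.39 (SD, n = 3 each). Of 12 markers of other cell types, 3 (CD68, ACTA2 and SOX9) reached 1 FPKM in every library, the list summed to 127.3 to 138, 107.4 to 110.4 and 111.7 to 113.4 FPKM in the same order, and the leukocyte markers PTPRC and CD3E were at 0 in 7 and 8 of 9 libraries. Within that list LYVE1, a marker of liver endothelium, was called higher with both hairpins, at 0.389 ± 0.119 FPKM for shCtrl, 6.71 ± 0.12 for shTRIB3-1 and 3.19 ± 0.117 for shTRIB3-2 (SD, n = 3 each), and DES, of stellate and muscle cells, stood at 0.0829 ± 0.0801 FPKM for shCtrl, 0.9499 ± 0.091 for shTRIB3-1 and 0.141 ± 0.0262 for shTRIB3-2 (SD, n = 3 each). LYVE1 was under 1 FPKM in every shCtrl library, so it passed the filter given below only through the knockdown libraries. The endothelial marker PECAM1 stood at 0.181 ± 0.0162, 0.128 ± 0.016 and 0.1165 ± 0.0237 FPKM in the same order. VWF, of endothelium too, stood at 0.0892 ± 0.00223, 0.103 ± 0.0165 and 0.1675 ± 0.0124 FPKM. ACTA2 stood at 58.6 ± 3.87, 40.1 ± 1.35 and 55.8 ± 1.68 FPKM (SD, n = 3 each). SOX9 of bile duct cells was called lower with shTRIB3-2. The part of these marker shifts in the results was not tested.

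TRIB3, the targeted gene, stood at 67.9, 65.8 and 66.6 FPKM for shCtrl, 34.1, 32.7 and 34.04 for shTRIB3-1 and 20.6, 20.7 and 20.4 for shTRIB3-2, in the order of replicates 1, 2 and 3 that is kept throughout. The groups did not overlap, and shTRIB3-2 libraries were the lowest. The log2 fold change was -0.99 (SE 0.0301, adjusted p 5.3e-11) for shTRIB3-1 and -1.70 (SE 0.0301, adjusted p 5.39e-13) for shTRIB3-2, by limma on log2(FPKM + 0.1) across 11265 genes with an FPKM of at least 1 in at least 3 libraries. On this scale, which understates the change of low genes, a gene is said here to have risen or fallen at a Benjamini-Hochberg adjusted p under 0.05, and to be called higher or lower when its log2 fold change is also above 1 in size.

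Most of the cell cycle genes fell with both hairpins, and the deepest losses were spread over several roles. With shTRIB3-1 the lowest shares of the control level among the 41 tested genes of the set were 16.03% for E2F8, 16.5% for CCNA2, 19.2% for CDKN2C and 22.8% for CDC25C, and with shTRIB3-2 they were 6.23% for E2F8, 8.45% for CDK1, 8.79% for CCNB2 and 9.703% for CCNB1. The other 3 of the 44 genes did not pass the filter on low values. With shTRIB3-1, 16 of the 41 were called lower, where the background over all tested genes was 6.1%, and 1 was called higher, against 5.39%. With shTRIB3-2, 21 were called lower, against 6.27%, and 1 higher, against 6.06%. The 16 genes called lower with shTRIB3-1 were all called lower with shTRIB3-2, and CDKN2B was called higher with both. The backgrounds for a call with both hairpins were 4.74% lower and 4.32% higher, and both comparisons share the shCtrl libraries. By adjusted p alone, 34 fell and 4 rose with shTRIB3-1, against 41.5% and 32.9% of tested genes, and 34 fell and 3 rose with shTRIB3-2, against 40.5% and 35.4%.

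The median log2 fold change of the 41 genes was -0.75 with shTRIB3-1 and -1.02 with shTRIB3-2, beside -0.06 and -0.04 over all tested genes. E2F8 and LIN9 passed the filter only through their shCtrl levels and CDKN2B only through the knockdown libraries, so those 3 had to differ. Without them 14 of 38 genes were called lower with shTRIB3-1, 19 with shTRIB3-2 and 14 with both. These counts keep CDC25C, CDKN2C and E2F2, which reached 1 FPKM in every shCtrl library and in no shTRIB3-2 library. The shares over all tested genes given above still include genes that passed the filter through shCtrl or the knockdown libraries alone. No background without such genes was computed for these counts. In bulk RNA, fewer cells in a phase of the cycle and less RNA of these genes per cell cannot be told apart.

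**Figure D1:**
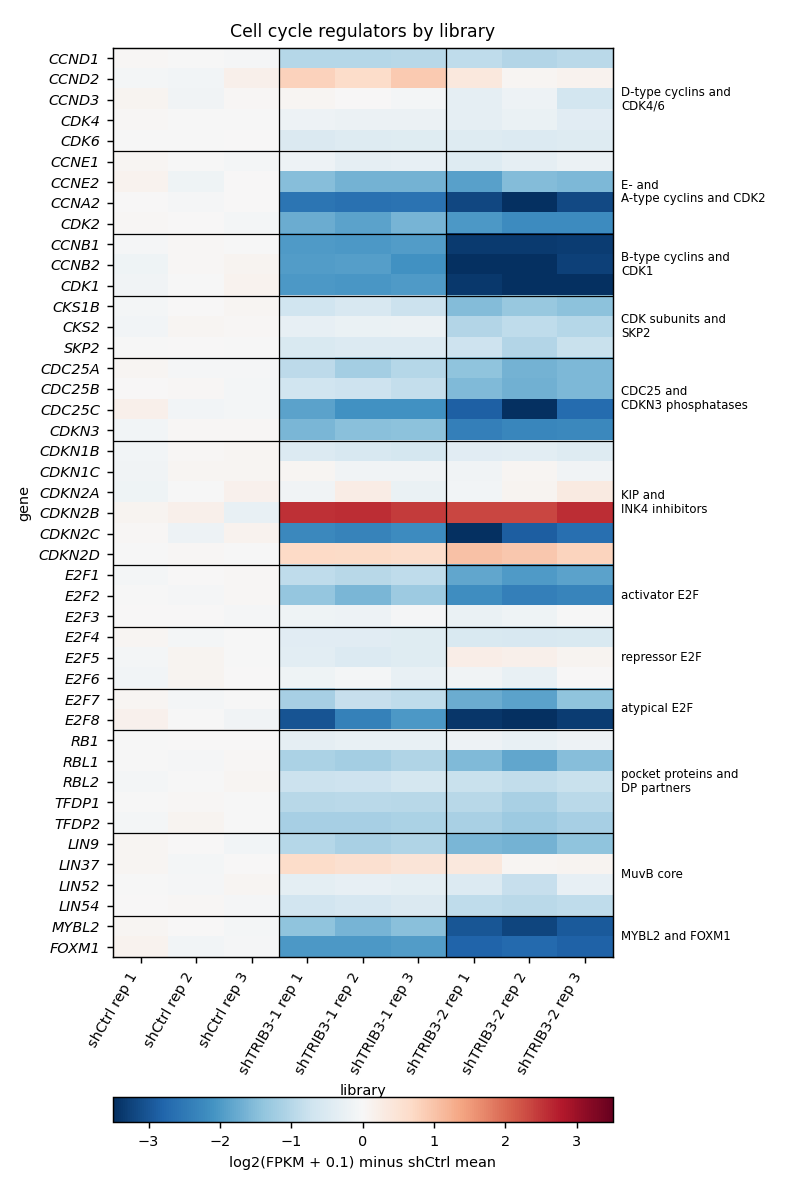
Each row is a gene, each column a library, and the colour is log2(FPKM + 0.1) minus the mean of the 3 shCtrl libraries, with blue lower and red higher; colours stop at 3.5 in size. The 44 genes are grouped by role, and the mitotic kinase rows CCNB1, CCNB2 and CDK1 are pale in shCtrl, blue in shTRIB3-1 and darkest in shTRIB3-2, while CDKN2B is red in all 6 knockdown libraries.

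The D-type cyclins and their kinases, which start the phosphorylation of RB, were the mildest affected of the cyclin and CDK groups: none of the 5 was called. Their summed level was 188 ± 3.45 FPKM in shCtrl, 130.6 ± 1.2 in shTRIB3-1 and 125.9 ± 2.04 with shTRIB3-2 (SD, n = 3 each). CCND1, the main D-type cyclin of these cells, stood at 77.9, 74.7 and 72.7 FPKM for shCtrl, 37.6, 37.4 and 38.5 for shTRIB3-1 and 40.2, 37.1 and 39.3 for shTRIB3-2. The knockdown groups overlapped each other and lay far below shCtrl. The log2 fold change of CCND1 was -0.99 (SE 0.0375, adjusted p 3.14e-10) for shTRIB3-1 and -0.95 (SE 0.0375, adjusted p 3.46e-10) for shTRIB3-2, just inside the fold threshold, and it passed that threshold with shTRIB3-1 when values were rescaled to TPM, transcript shares that sum to the same total in each library (-1.04) or without shCtrl replicate 3 (-1.01).

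The other D-type cyclins were scarce and moved unlike CCND1. CCND2 stood at 0.968, 0.942 and 1.17 FPKM for shCtrl, 1.85, 1.65 and 2.03 for shTRIB3-1 and 1.35, 1.08 and 1.12 for shTRIB3-2, rising with shTRIB3-1 by a log2 fold change of 0.79 (SE 0.126, adjusted p 0.000111) but not shown to differ from shCtrl with shTRIB3-2, at 0.19 (SE 0.126, adjusted p 0.19). CCND2 was lower with shTRIB3-2 than with shTRIB3-1, at a log2 fold change of -0.60 (SE 0.126, adjusted p 0.00221). Of the CCND2 exon bases, 12.5% are overlapped on the same strand and 3.4% on the opposite strand. CCND3 stood at 3.61 ± 0.282 FPKM for shCtrl, 3.62 ± 0.166 for shTRIB3-1 and 2.76 ± 0.46 for shTRIB3-2 (SD, n = 3 each) and fell with shTRIB3-2 only, by a log2 fold change of -0.39 (SE 0.108, adjusted p 0.00597) against 0.01 (SE 0.108, adjusted p 0.967) with shTRIB3-1, a difference that passed the test at -0.39 (SE 0.108, adjusted p 0.0107). CCND1 made up 94.2% ± 0.44 of the summed D-type cyclin FPKM in shCtrl, 87.4% ± 0.296 in shTRIB3-1 and 90.8% ± 1.2 with shTRIB3-2 (SD, n = 3 each). Exact two-sided permutation tests of this share gave 0.1 for each pair of groups, the smallest p that 3 against 3 libraries allow.

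CDK4 and CDK6, the partners of the D-type cyclins, changed little. CDK6 stood at 49.3, 49.7 and 50.3 FPKM for shCtrl, 35.1, 36.2 and 37.4 for shTRIB3-1 and 36.5, 35.5 and 36.7 for shTRIB3-2, and its log2 fold change was -0.46 (SE 0.0321, adjusted p 7.12e-08) for shTRIB3-1 and -0.46 (SE 0.0321, adjusted p 6.07e-08) for shTRIB3-2. Its knockdown libraries overlapped each other, with a difference between hairpins of -0.001 (SE 0.0321, adjusted p 0.989). CDK4 stood at 58.5 ± 1.23 FPKM for shCtrl, 51.03 ± 0.41 for shTRIB3-1 and 46.9 ± 2.57 for shTRIB3-2 (SD, n = 3 each), with log2 fold changes of -0.20 (SE 0.0384, adjusted p 0.000519) for shTRIB3-1 and -0.32 (SE 0.0384, adjusted p 8.09e-06) for shTRIB3-2, and the fall with shTRIB3-1 missed the threshold when libraries were centred on their medians (adjusted p 0.0543). TSPAN31, on the opposite strand, overlaps 44.2% of the exon bases of CDK4, and without a known strand setting the reads of these genes cannot be told apart.

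E-type and A-type cyclins with CDK2, the kinase of S phase entry, split into a cyclin that barely moved and partners that fell steeply. CCNE1, the E-type cyclin of these cells, stood at 19.3, 18.1 and 17.5 FPKM for shCtrl, 16.2, 14.6 and 15.02 for shTRIB3-1 and 13.4, 14.7 and 15.8 for shTRIB3-2. Every knockdown library was below every shCtrl library, by a log2 fold change of -0.26 (SE 0.0612, adjusted p 0.00199) for shTRIB3-1 and -0.33 (SE 0.0612, adjusted p 0.000396) for shTRIB3-2. CDK2, which both E-type and A-type cyclins activate, stood at 14.6, 14.3 and 13.6 FPKM for shCtrl, 4.17, 3.81 and 4.47 for shTRIB3-1 and 3.46, 2.99 and 2.99 for shTRIB3-2. CDK2 gave log2 fold changes of -1.75 (SE 0.0734, adjusted p 7.28e-10) for shTRIB3-1 and -2.14 (SE 0.0734, adjusted p 9.76e-11) for shTRIB3-2, so that 29.3% and 22.2% of its control level remained. Of the CDK2 exon bases, 16.8% overlap genes on the opposite strand.

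CCNA2, the A-type cyclin of S and G2 phases, was among the genes that fell most: 16.5% of its control level remained with shTRIB3-1 and 9.98% with shTRIB3-2. It stood at 34.9, 33.2 and 34.9 FPKM for shCtrl, 5.78, 5.58 and 5.63 for shTRIB3-1 and 3.702, 2.82 and 3.76 for shTRIB3-2, with no overlap between groups. By limma CCNA2 gave log2 fold changes of -2.58 (SE 0.0867, adjusted p 1.13e-10) for shTRIB3-1 and -3.30 (SE 0.0867, adjusted p 1.13e-11) for shTRIB3-2, with a difference between hairpins of -0.72 (SE 0.0867, adjusted p 4.04e-05). CCNE2, the other E-type cyclin, stayed under the filter and was not in the tests above. It counted 162, 133 and 149 fragments in shCtrl, 42, 36 and 36 in shTRIB3-1 and 28, 41 and 40 in shTRIB3-2, in a gene whose exon bases overlap opposite-strand genes by 37.1%. Fitted without the filter, CCNE2 gave a log2 fold change of -1.60 for shTRIB3-1 (SE 0.163, adjusted p 5.07e-05) and -1.66 for shTRIB3-2 (SE 0.163, adjusted p 3.69e-05).

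The B-type cyclins and CDK1 form the kinase that drives mitosis, and all 3 genes fell with shTRIB3-1 and fell again by more than the fold threshold between shTRIB3-1 and shTRIB3-2. Their summed level went from 123.8 ± 5.93 FPKM in shCtrl to 30.81 ± 0.245 in shTRIB3-1 and 11.37 ± 0.34 with shTRIB3-2 (SD, n = 3 each). CDK1 stood at 26.8, 28.5 and 31.6 FPKM for shCtrl, 7.14, 6.91 and 7.198 for shTRIB3-1 and 2.69, 2.29 and 2.35 for shTRIB3-2. No groups overlapped, and the log2 fold change was -2.01 (SE 0.0704, adjusted p 1.57e-10) for shTRIB3-1 and -3.51 (SE 0.0704, adjusted p 1.29e-12) for shTRIB3-2. CCNB1 stood at 63.2, 66.1 and 64.6 FPKM for shCtrl, 16.1, 16.1 and 16.4 for shTRIB3-1 and 6.21, 6.29 and 6.32 for shTRIB3-2, leaving 25.1% of the control level with shTRIB3-1 and 9.703% with shTRIB3-2. Its log2 fold change was -1.99 (SE 0.0329, adjusted p 5.66e-13) for shTRIB3-1 and -3.35 (SE 0.0329, adjusted p 1.05e-14) for shTRIB3-2.

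CCNB2, the second B-type cyclin, followed the same order of groups, at 27.2, 30.8 and 32.5 FPKM for shCtrl, 7.75, 7.82 and 6.89 for shTRIB3-1 and 2.495, 2.43 and 3.02 for shTRIB3-2. It gave a log2 fold change of -1.99 (SE 0.0876, adjusted p 1.09e-09) for shTRIB3-1 and -3.46 (SE 0.0876, adjusted p 8.25e-12) for shTRIB3-2. The make-up of the pair was not shown to change: CCNB1 was 68.2% ± 1.66 of their summed FPKM in shCtrl, 68.4% ± 1.75 in shTRIB3-1 and 70.4% ± 2.39 with shTRIB3-2 (SD, n = 3 each). Exact two-sided permutation tests of that share gave p = 0.9 for shTRIB3-1 against shCtrl, 0.3 for shTRIB3-2 against shCtrl and 0.2 between the hairpins, with a smallest possible p of 0.1. Among the 4 kinases CDK1, CDK2, CDK4 and CDK6, the share of CDK1 and CDK2 in the summed FPKM went from 28.5% ± 1.03 in shCtrl to 11.4% ± 0.412 in shTRIB3-1 and 6.31% ± 0.522 with shTRIB3-2 (SD, n = 3 each). Each pair of groups was apart, at the smallest permutation p of 0.1. CDK1 and CDK2 are those of the 4 that fell most, so the lower share follows from their fits and adds no support.

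**Figure D2:**
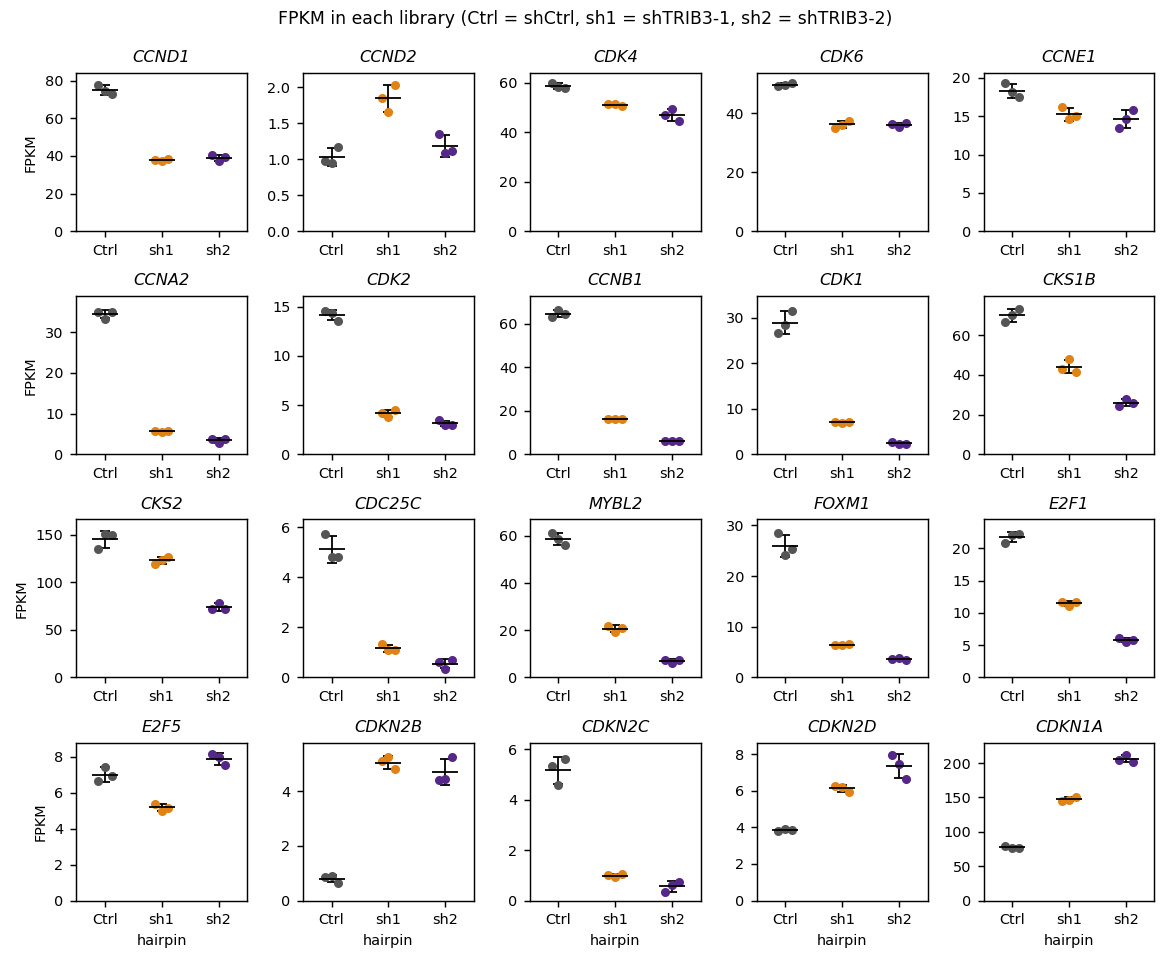
FPKM (linear axis from 0) of 20 genes in each library, with points for the 3 libraries of shCtrl (Ctrl), shTRIB3-1 (sh1) and shTRIB3-2 (sh2), and lines for the mean and SD. CDK1 steps down from 28.97 to 7.083 and 2.447 FPKM on average, CCND1 drops to overlapping levels with both hairpins, E2F5 is lowest with shTRIB3-1, and CDKN2B and CDKN1A are higher in the knockdown groups.

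The CDK subunits CKS1B and CKS2 are small proteins that bind CDKs, and SKP2 is the ubiquitin ligase subunit that marks the CDKN1B protein for destruction with the help of CKS1B. All 3 fell with both hairpins, and only CKS1B with shTRIB3-2 was called. CKS1B stood at 66.6, 70.3 and 73.2 FPKM for shCtrl, 43.2, 47.8 and 41.6 for shTRIB3-1 and 24.2, 27.8 and 25.8 for shTRIB3-2, with log2 fold changes of -0.66 (SE 0.0596, adjusted p 6.79e-07) for shTRIB3-1 and -1.43 (SE 0.0596, adjusted p 5.48e-10) for shTRIB3-2. CKS2, the most abundant of the 44 genes, stood at 135, 151 and 149 FPKM for shCtrl, 119.6, 124 and 126 for shTRIB3-1 and 71.8, 78.5 and 72.2 for shTRIB3-2. Its shTRIB3-1 libraries lay just under shCtrl and its shTRIB3-2 libraries well under both, by log2 fold changes of -0.24 (SE 0.0477, adjusted p 0.000713) for shTRIB3-1 and -0.97 (SE 0.0477, adjusted p 2.37e-09) for shTRIB3-2. The value with shTRIB3-2 passed the fold threshold without shCtrl replicate 1 (-1.02) and without shTRIB3-2 replicate 2 (-1.01). CKS2 made up 67.5% ± 0.704 of the summed CKS FPKM in shCtrl, 73.6% ± 1.58 in shTRIB3-1 and 74.1% ± 0.595 with shTRIB3-2 (SD, n = 3 each), with exact permutation p = 0.1 against shCtrl for each hairpin and 0.7 between hairpins. CKS1B has 7 pseudogenes named after it, so part of its reads could have been counted elsewhere.

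SKP2 stood at 11.1, 11.4 and 11.2 FPKM for shCtrl, 7.74, 7.98 and 8.08 for shTRIB3-1 and 6.74, 5.49 and 6.47 for shTRIB3-2, with log2 fold changes of -0.50 (SE 0.066, adjusted p 2.28e-05) for shTRIB3-1 and -0.84 (SE 0.066, adjusted p 1.66e-07) for shTRIB3-2. CDKN1B, whose protein SKP2 removes, is described with the inhibitors.

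The CDC25 phosphatases activate CDKs by removing inhibitory phosphates, and CDKN3 is a phosphatase that acts on the activating phosphate of CDK2. With shTRIB3-1 3 of these 4 genes were called lower, and with shTRIB3-2 all 4. CDC25C, which acts at mitotic entry, stood at 5.75, 4.801 and 4.82 FPKM for shCtrl, 1.32, 1.09 and 1.096 for shTRIB3-1 and 0.614, 0.358 and 0.698 for shTRIB3-2, from 32 to 529 fragments. No groups overlapped, and CDC25C gave log2 fold changes of -2.04 (SE 0.179, adjusted p 5.43e-07) for shTRIB3-1 and -3.03 (SE 0.179, adjusted p 1.28e-08) for shTRIB3-2. CDC25A, which acts at the start of S phase, stood at 8.93, 8.25 and 8.24 FPKM for shCtrl, 4.45, 3.67 and 4.22 for shTRIB3-1 and 3.13, 2.61 and 2.79 for shTRIB3-2.

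CDC25A gave log2 fold changes of -1.03 (SE 0.0837, adjusted p 2.81e-07) for shTRIB3-1 and -1.55 (SE 0.0837, adjusted p 5.69e-09) for shTRIB3-2, and its call with shTRIB3-1 ended under a pseudocount of 1 (-0.89), median centring (-0.95), quantile normalization (-0.96), without shCtrl replicate 1 (-0.99) and without shTRIB3-1 replicate 2 (-0.95). CDC25B stood at 24.9 ± 0.927 FPKM for shCtrl, 14.8 ± 0.858 for shTRIB3-1 and 8.14 ± 0.407 for shTRIB3-2 (SD, n = 3 each), with log2 fold changes of -0.75 (SE 0.0527, adjusted p 7.43e-08) for shTRIB3-1 and -1.60 (SE 0.0527, adjusted p 6.88e-11) for shTRIB3-2, with the call for shTRIB3-2 alone. CDKN3 stood at 14.9, 16.1 and 16.4 FPKM for shCtrl, 5.17, 5.65 and 5.72 for shTRIB3-1 and 2.91, 3.14 and 3.25 for shTRIB3-2. All of its knockdown libraries lay below all shCtrl libraries, by log2 fold changes of -1.50 (SE 0.0618, adjusted p 6.3e-10) for shTRIB3-1 and -2.31 (SE 0.0618, adjusted p 1.31e-11) for shTRIB3-2.

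Among the CDK inhibitors the changes went in opposite directions. The INK4 genes CDKN2A to CDKN2D encode proteins that block CDK4 and CDK6, and here CDKN2B was called higher and CDKN2C lower with both hairpins. CDKN2B stood at 0.849, 0.899 and 0.645 FPKM for shCtrl, 5.104, 5.24 and 4.797 for shTRIB3-1 and 4.42, 4.44 and 5.25 for shTRIB3-2. These levels rest on 121, 130 and 92 fragments in shCtrl, 696, 715 and 665 in shTRIB3-1 and 602, 615 and 734 in shTRIB3-2. Knockdown libraries were all above shCtrl and overlapped each other, at 6.33-fold and 5.896-fold of the control mean. The log2 fold change of CDKN2B was 2.53 (SE 0.111, adjusted p 1.09e-09) for shTRIB3-1 and 2.43 (SE 0.111, adjusted p 1.26e-09) for shTRIB3-2. A pseudocount of 1 gave 1.75 and 1.67, both still called, and the difference between hairpins did not pass the test, at -0.10 (SE 0.111, adjusted p 0.474).

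CDKN2C went the other way, at 5.32, 4.58 and 5.61 FPKM for shCtrl, 1.001, 0.933 and 1.04 for shTRIB3-1 and 0.321, 0.617 and 0.742 for shTRIB3-2. Between 24 and 440 fragments a library lie behind these values, and 20.4% of its exon bases overlap a gene on the opposite strand. Its log2 fold change was -2.27 (SE 0.204, adjusted p 6.73e-07) for shTRIB3-1 and -3.05 (SE 0.204, adjusted p 3.85e-08) for shTRIB3-2. CDKN2D rose without reaching the fold threshold, at 3.79, 3.94 and 3.84 FPKM for shCtrl, 6.29, 6.22 and 5.93 for shTRIB3-1 and 7.96, 7.48 and 6.66 for shTRIB3-2, with log2 fold changes of 0.66 (SE 0.0653, adjusted p 1.66e-06) for shTRIB3-1 and 0.91 (SE 0.0653, adjusted p 7.35e-08) for shTRIB3-2. CDKN2A did not pass the filter, with 66 to 103 fragments a library, and fitted without the filter it gave -0.03 (SE 0.184, adjusted p 0.963) with shTRIB3-1 and 0.10 (SE 0.184, adjusted p 0.732) with shTRIB3-2. The table has 1 row for CDKN2A, so its INK4A and ARF transcripts were not separated.

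The share of CDKN2B and CDKN2D in the summed INK4 FPKM went from 45.2% ± 3.4 in shCtrl to 88.3% ± 0.347 in shTRIB3-1 and 91.6% ± 2.27 with shTRIB3-2 (SD, n = 3 each). Each pair of groups gave the smallest permutation p of 0.1. CDKN2B and CDKN2D are the INK4 genes that rose in these data. The higher share against shCtrl thus follows from that choice, and its permutation p adds no support. Of the KIP genes, whose proteins bind whole cyclin and CDK complexes, CDKN1B stood at 22.1, 24.7 and 24.9 FPKM for shCtrl, 17.00, 16.2 and 15.5 for shTRIB3-1 and 18.1, 18.5 and 17.4 for shTRIB3-2. Its log2 fold changes were -0.56 (SE 0.0519, adjusted p 9.83e-07) for shTRIB3-1 and -0.41 (SE 0.0519, adjusted p 1.44e-05) for shTRIB3-2. CDKN1C had at most 1 fragment in any library, and no fold is given for it.

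CDKN1A, the KIP gene that p53 switches on, is not among the 44 and is given here because its protein inhibits the same complexes. It stood at 78.9, 76.9 and 76.7 FPKM for shCtrl, 145, 147 and 151 for shTRIB3-1 and 205, 212 and 202 for shTRIB3-2. No groups overlapped, and the log2 fold change of the rise was 0.93 (SE 0.0302, adjusted p 8.45e-11) for shTRIB3-1 and 1.41 (SE 0.0302, adjusted p 2.06e-12) for shTRIB3-2. CDKN1A was thus called higher with shTRIB3-2, and with shTRIB3-1 it was called after median centring only (1.01).

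**Figure D3:**
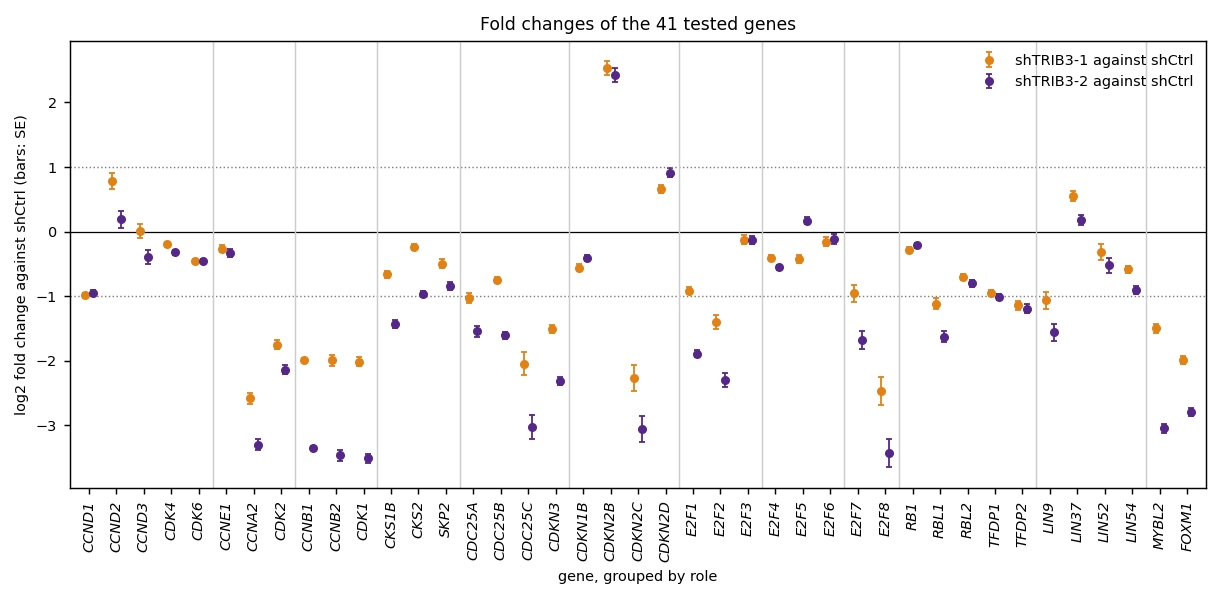
Log2 fold change against shCtrl on the log2(FPKM + 0.1) scale for the 41 tested genes, grouped by role along the axis, in orange for shTRIB3-1 and purple for shTRIB3-2; bars are the SE of the fit and dotted lines mark the fold threshold of 1. The purple points lie below the orange ones for the genes of S phase and mitosis, down to -3.51 for CDK1, and CDKN2B stands alone above the upper line.

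The activator E2F genes did not move together. E2F1 and E2F2, which switch on S phase genes when RB lets go of them, fell, and E2F3 did not pass the test. E2F1 stood at 20.9, 22.04 and 22.2 FPKM for shCtrl, 11.7, 11.04 and 11.7 for shTRIB3-1 and 6.09, 5.46 and 5.81 for shTRIB3-2, with no overlap between groups. Its log2 fold change was -0.91 (SE 0.0493, adjusted p 6.74e-09) for shTRIB3-1 and -1.89 (SE 0.0493, adjusted p 1.09e-11) for shTRIB3-2, a call for shTRIB3-2 alone. E2F2 stood at 4.06, 3.97 and 4.17 FPKM for shCtrl, 1.54, 1.28 and 1.63 for shTRIB3-1 and 0.823, 0.693 and 0.735 for shTRIB3-2, with calls at -1.40 (SE 0.105, adjusted p 1.29e-07) for shTRIB3-1 and -2.29 (SE 0.105, adjusted p 1.26e-09) for shTRIB3-2.

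E2F3 stood at 4.55, 4.504 and 4.36 FPKM for shCtrl, 4.01, 3.96 and 4.300 for shTRIB3-1 and 3.82, 3.98 and 4.42 for shTRIB3-2, and the log2 fold change was -0.13 (SE 0.0666, adjusted p 0.105) for shTRIB3-1 and -0.13 (SE 0.0666, adjusted p 0.0895) for shTRIB3-2. With rescaling to TPM the shTRIB3-1 value of E2F3 passed the test at -0.18 (adjusted p 0.0431), and with limma-voom on fragments both values passed, at -0.13 (adjusted p 0.049) for shTRIB3-1 and -0.14 (adjusted p 0.0389) for shTRIB3-2. Without shTRIB3-2 replicate 3 the shTRIB3-2 value of E2F3 also passed, at -0.19 (adjusted p 0.0217). The summed FPKM of E2F1, E2F2 and E2F3 was 41.7% ± 0.638 of that of E2F1 to E2F6 in shCtrl, 33.8% ± 1.38 in shTRIB3-1 and 23.4% ± 0.213 with shTRIB3-2 (SD, n = 3 each). Each pair of groups was separated, at the smallest exact permutation p of 0.1. E2F1 and E2F2 are those of E2F1 to E2F6 that fell most, so the lower share follows from their fits and adds no support.

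The repressor E2F genes shifted far less. E2F4, the E2F of the DREAM complex, stood at 25.5, 23.1 and 23.97 FPKM for shCtrl, 18.2, 18.4 and 18.02 for shTRIB3-1 and 16.6, 16.2 and 16.6 for shTRIB3-2, with log2 fold changes of -0.41 (SE 0.0394, adjusted p 1.42e-06) for shTRIB3-1 and -0.55 (SE 0.0394, adjusted p 7.41e-08) for shTRIB3-2. E2F5 fell with shTRIB3-1 and rose with shTRIB3-2, at 6.63, 7.44 and 6.92 FPKM for shCtrl, 5.39, 4.998 and 5.14 for shTRIB3-1 and 8.16, 7.98 and 7.53 for shTRIB3-2. Its shTRIB3-1 libraries lay below all shCtrl libraries and its shTRIB3-2 libraries above all of them. The log2 fold change was -0.43 (SE 0.0575, adjusted p 2.63e-05) for shTRIB3-1 and 0.17 (SE 0.0575, adjusted p 0.0166) for shTRIB3-2, and the difference between hairpins was 0.60 (SE 0.0575, adjusted p 6.69e-06). The rise with shTRIB3-2 missed the threshold without shCtrl replicate 1 (0.13, adjusted p 0.0702) or shTRIB3-2 replicate 1 (0.15, adjusted p 0.0637), and 18.8% of the exon bases of E2F5 overlap opposite-strand genes. E2F6, which represses without the RB family, stood at 11.1 ± 0.739 FPKM for shCtrl, 9.997 ± 0.627 for shTRIB3-1 and 10.3 ± 1.01 for shTRIB3-2 (SD, n = 3 each), and neither log2 fold change passed the test, at -0.15 (SE 0.0742, adjusted p 0.0791) for shTRIB3-1 and -0.12 (SE 0.0742, adjusted p 0.174) for shTRIB3-2. The value of E2F6 with shTRIB3-1 passed under 4 of 18 alternatives and that with shTRIB3-2 under 1.

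The atypical factors E2F7 and E2F8, which repress E2F target genes and bind DNA without a DP partner, are themselves known E2F targets. E2F8 stood at 3.31, 2.93 and 2.73 FPKM for shCtrl, 0.2795, 0.492 and 0.666 for shTRIB3-1 and 0.191, 0.159 and 0.208 for shTRIB3-2, from 389 to 470 fragments in shCtrl, 38 to 92 in shTRIB3-1 and 22 to 29 in shTRIB3-2. E2F8 gave log2 fold changes of -2.47 (SE 0.22, adjusted p 6.34e-07) for shTRIB3-1 and -3.43 (SE 0.22, adjusted p 2.66e-08) for shTRIB3-2, and the difference between hairpins of -0.96 (SE 0.22, adjusted p 0.0037) did not pass after quantile normalization (-0.60, adjusted p 0.131). E2F7 stood at 3.09, 2.81 and 2.93 FPKM for shCtrl, 1.25, 1.65 and 1.53 for shTRIB3-1 and 0.809, 0.726 and 1.04 for shTRIB3-2, with log2 fold changes of -0.95 (SE 0.134, adjusted p 3.68e-05) for shTRIB3-1 and -1.68 (SE 0.134, adjusted p 2.04e-07) for shTRIB3-2. It was called with shTRIB3-2, and with shTRIB3-1 after rescaling to TPM (-1.04) or without shTRIB3-1 replicate 2 (-1.03).

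Of the pocket proteins, which hold the E2F factors in check, RBL1 fell most and RB1 least. RBL1, itself a known E2F target, stood at 5.999, 5.88 and 6.21 FPKM for shCtrl, 2.74, 2.601 and 2.84 for shTRIB3-1 and 1.98, 1.63 and 2.07 for shTRIB3-2. No groups overlapped, and the log2 fold change was -1.12 (SE 0.086, adjusted p 1.67e-07) for shTRIB3-1 and -1.63 (SE 0.086, adjusted p 4.59e-09) for shTRIB3-2. A pseudocount of 1 ended the call with shTRIB3-1 (-0.92). RB1 stood at 18.7, 19.2 and 19.1 FPKM for shCtrl, 15.3, 15.7 and 15.9 for shTRIB3-1 and 16.6, 15.7 and 16.7 for shTRIB3-2, with log2 fold changes of -0.28 (SE 0.0371, adjusted p 2.28e-05) for shTRIB3-1 and -0.21 (SE 0.0371, adjusted p 0.000207) for shTRIB3-2. RBL2, the pocket protein of DREAM in resting cells, stood at 17.7 ± 0.894 FPKM for shCtrl, 10.8 ± 0.503 for shTRIB3-1 and 10.1 ± 0.408 for shTRIB3-2 (SD, n = 3 each), with log2 fold changes of -0.70 (SE 0.0512, adjusted p 9.97e-08) for shTRIB3-1 and -0.80 (SE 0.0512, adjusted p 2.54e-08) for shTRIB3-2. Opposite-strand genes overlap 16.4% of the RBL2 exon bases.

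The DP partners TFDP1 and TFDP2, which E2F1 to E2F6 need to bind DNA, dropped to overlapping levels with both hairpins. TFDP1 stood at 37.3, 38.4 and 37.1 FPKM for shCtrl, 19.1, 19.5 and 19.2 for shTRIB3-1 and 19.3, 17.03 and 19.3 for shTRIB3-2, and its log2 fold change was -0.96 (SE 0.0465, adjusted p 2.56e-09) for shTRIB3-1 and -1.02 (SE 0.0465, adjusted p 1.25e-09) for shTRIB3-2. The call of TFDP1 with shTRIB3-2 ended under a pseudocount of 1 (-0.98), under median centring (-0.97) and without shTRIB3-2 replicate 2 (-0.96), and rescaling to TPM gave a call with shTRIB3-1 (-1.01). TFDP2 stood at 4.89, 5.42 and 5.01 FPKM for shCtrl, 2.23, 2.21 and 2.33 for shTRIB3-1 and 2.25, 2.06 and 2.22 for shTRIB3-2. Its log2 fold change was -1.14 (SE 0.0702, adjusted p 2.15e-08) for shTRIB3-1 and -1.20 (SE 0.0702, adjusted p 1.21e-08) for shTRIB3-2, and a pseudocount of 1 brought both values under the fold threshold, at -0.91 and -0.94. The hairpins were not shown to differ for TFDP1, at -0.06 (SE 0.0465, adjusted p 0.326), or for TFDP2, at -0.05 (SE 0.0702, adjusted p 0.581).

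The genes of the MuvB core did not move together. The summed level of LIN9, LIN37, LIN52 and LIN54 was 15.55 ± 0.314 FPKM in shCtrl, 14.63 ± 0.291 in shTRIB3-1 and 11.49 ± 0.856 with shTRIB3-2 (SD, n = 3 each), a sum in which falls of LIN9, LIN52 and LIN54 stand beside a rise of LIN37 with shTRIB3-1. RBBP4, the histone-binding subunit, is not among the 44 genes and was the most abundant of the core, at 44.1 ± 0.788 FPKM for shCtrl, 28.3 ± 0.763 for shTRIB3-1 and 29.8 ± 0.268 for shTRIB3-2 (SD, n = 3 each). It fell with both hairpins, by log2 fold changes of -0.64 (SE 0.0314, adjusted p 2.87e-09) for shTRIB3-1 and -0.56 (SE 0.0314, adjusted p 7.13e-09) for shTRIB3-2, and with it the sum was 59.7 ± 1.09 FPKM in shCtrl, 42.97 ± 0.479 in shTRIB3-1 and 41.29 ± 0.588 with shTRIB3-2 (SD, n = 3 each). LIN9, through which MuvB joins MYBL2, was called lower with both hairpins and stood at 1.65, 1.57 and 1.46 FPKM for shCtrl, 0.733, 0.651 and 0.695 for shTRIB3-1 and 0.442, 0.424 and 0.526 for shTRIB3-2. It gave log2 fold changes of -1.07 (SE 0.127, adjusted p 8.45e-06) for shTRIB3-1 and -1.56 (SE 0.127, adjusted p 2.35e-07) for shTRIB3-2, on 80 to 319 fragments, and a pseudocount of 1 ended both calls, at -0.60 and -0.81, as did median centring for shTRIB3-1 (-0.99). LIN54, the DNA-binding subunit, stood at 6.59, 6.66 and 6.29 FPKM for shCtrl, 4.04, 4.31 and 4.58 for shTRIB3-1 and 3.49, 3.34 and 3.48 for shTRIB3-2, with log2 fold changes of -0.59 (SE 0.0603, adjusted p 2.36e-06) for shTRIB3-1 and -0.90 (SE 0.0603, adjusted p 3.92e-08) for shTRIB3-2.

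LIN52, which links MuvB to the pocket proteins, stood at 2.03 ± 0.0912 FPKM for shCtrl, 1.61 ± 0.0308 for shTRIB3-1 and 1.399 ± 0.261 for shTRIB3-2 (SD, n = 3 each). Its log2 fold changes were -0.32 (SE 0.119, adjusted p 0.0301) for shTRIB3-1 and -0.52 (SE 0.119, adjusted p 0.00161) for shTRIB3-2, and the shTRIB3-1 value missed the threshold under 7 of 17 alternatives, including each of those that left out 1 shTRIB3-1 library. LIN37 was the MuvB gene that rose, at 5.68, 5.16 and 5.499 FPKM for shCtrl, 8.49, 8.12 and 7.44 for shTRIB3-1 and 6.999, 5.76 and 5.81 for shTRIB3-2. The log2 fold change was 0.55 (SE 0.0786, adjusted p 4.38e-05) with shTRIB3-1, while the value with shTRIB3-2 was 0.18 (SE 0.0786, adjusted p 0.0568) and passed the test under 5 of 18 alternatives. Other genes overlap 26.7% of the LIN37 exon bases on the same strand and 41.8% on the opposite strand, so its reads may be shared.

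MYBL2 and FOXM1, which turn MuvB into an activator of mitotic genes, were both called lower with both hairpins. MYBL2 stood at 61.04, 58.6 and 56.1 FPKM for shCtrl, 22.01, 19.1 and 21.1 for shTRIB3-1 and 7.29, 6.21 and 7.57 for shTRIB3-2. No groups overlapped, 35.4% and 11.99% of the control level remained, and the log2 fold change was -1.50 (SE 0.0714, adjusted p 2.16e-09) for shTRIB3-1 and -3.05 (SE 0.0714, adjusted p 4.46e-12) for shTRIB3-2. FOXM1 stood at 28.4, 24.2 and 25.4 FPKM for shCtrl, 6.38, 6.41 and 6.61 for shTRIB3-1 and 3.63, 3.82 and 3.53 for shTRIB3-2, with log2 fold changes of -1.99 (SE 0.0594, adjusted p 4.75e-11) for shTRIB3-1 and -2.79 (SE 0.0594, adjusted p 1.98e-12) for shTRIB3-2. ITFG2, on the opposite strand, is the gene that overlaps 15.9% of the exon bases of FOXM1.

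The hairpins were then compared directly, which asks where the lower TRIB3 level of shTRIB3-2 went with a different level of these genes. Of the 41 tested genes 4 were called lower with shTRIB3-2 than with shTRIB3-1, against 1.79% of all tested genes, and 0 higher, against 0.284%, so that 4 were called in either direction against 2.08%. By adjusted p alone 27 were lower, against 20.7%, and 3 were higher, against 25.1%. The 4 called genes were MYBL2 at -1.55 (SE 0.0714, adjusted p 1.85e-08), CDK1 at -1.50 (SE 0.0704, adjusted p 2.11e-08), CCNB2 at -1.47 (SE 0.0876, adjusted p 1.44e-07) and CCNB1 at -1.36 (SE 0.0329, adjusted p 7.73e-11). Of the 16 genes called lower with both hairpins, 15 were also lower with shTRIB3-2 than with shTRIB3-1 at an adjusted p under 0.05, or 93.8%, and TFDP2 was the exception. E2F8 and LIN9, which passed the filter only through shCtrl, are among the 15. Among all 534 tested genes called lower with both hairpins that share was 49.8%, and over all tested genes 2.36% met both conditions. With 1 hairpin at each level of TRIB3, the depth of knockdown and other properties of a hairpin cannot be told apart.

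A small difference between hairpins did not always go with a small response. CDK6, CCND1, TFDP1 and TFDP2 had fallen by 0.46 to 1.20 on the log2 scale with each hairpin, and differed by no more than 0.06 in size between hairpins. CDKN1B was higher with shTRIB3-2 than with shTRIB3-1 by 0.15 (SE 0.0519, adjusted p 0.0359), and 7 of 18 alternatives ended that difference. CDKN2D was also higher with shTRIB3-2, by 0.25 (SE 0.0653, adjusted p 0.00754).

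**Figure D4:**
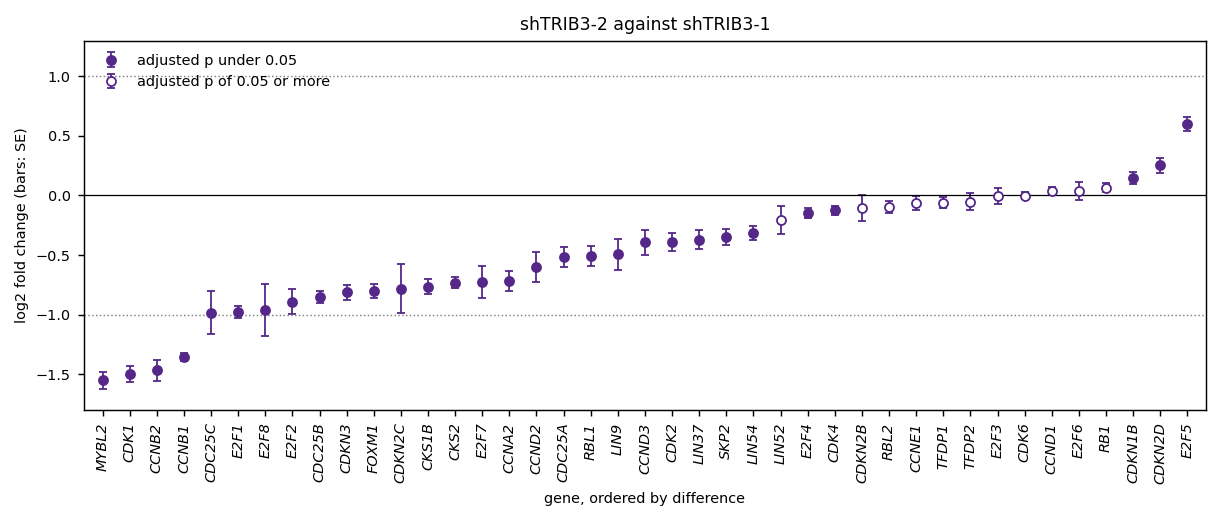
Log2 fold change of shTRIB3-2 against shTRIB3-1 for the 41 tested genes in order of size, with the SE of the fit as bars; filled points have an adjusted p under 0.05 and open points do not, and dotted lines mark the fold threshold of 1. The order runs from MYBL2 at -1.55 to E2F5 at 0.60, and only MYBL2, CDK1, CCNB2 and CCNB1 lie beyond the lower line.

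The rest of the pathway was described with 4 lists that hold none of the 44 genes. Of 26 tested genes among the other cyclins and CDKs, which serve transcription and other tasks, 3 (11.5%) were called lower with each hairpin and 0 higher, with medians of -0.17 and -0.16. The backgrounds, here and for the next lists, were the 6.1% and 6.27% lower and 5.39% and 6.06% higher given above. The 3 were CCNF, the cyclin of a ubiquitin ligase, CCNY, which partners CDK14, and CDK19, a kinase of the Mediator complex. CCNF stood at 6.94 ± 0.251 FPKM for shCtrl, 3.04 ± 0.189 for shTRIB3-1 and 2.17 ± 0.303 for shTRIB3-2 (SD, n = 3 each), with log2 fold changes of -1.16 (SE 0.0917, adjusted p 2.05e-07) for shTRIB3-1 and -1.64 (SE 0.0917, adjusted p 7.63e-09) for shTRIB3-2. CCNY stood at 23.9 ± 0.215 FPKM for shCtrl, 8.86 ± 0.253 for shTRIB3-1 and 9.73 ± 0.771 for shTRIB3-2 (SD, n = 3 each), with log2 fold changes of -1.43 (SE 0.0523, adjusted p 2.3e-10) for shTRIB3-1 and -1.29 (SE 0.0523, adjusted p 4.17e-10) for shTRIB3-2. CDK19 stood at 3.84 ± 0.124 FPKM for shCtrl, 1.74 ± 0.158 for shTRIB3-1 and 1.63 ± 0.106 for shTRIB3-2 (SD, n = 3 each) and gave -1.10 (SE 0.0861, adjusted p 1.88e-07) for shTRIB3-1 and -1.19 (SE 0.0861, adjusted p 8.33e-08) for shTRIB3-2.

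Of 18 other regulators of CDKs, RB and DREAM, 5 (27.8%) were called lower with each hairpin, against 6.1% and 6.27% of all tested genes, 0 were called higher with shTRIB3-1 and 1, CDKN1A, with shTRIB3-2. The lowest of them was PLK1, the mitotic kinase, at 70.9 ± 2.58 FPKM for shCtrl, 14.7 ± 0.671 for shTRIB3-1 and 4.33 ± 0.377 for shTRIB3-2 (SD, n = 3 each), a log2 fold change of -2.26 (SE 0.0585, adjusted p 1.54e-11) for shTRIB3-1 and -4.003 (SE 0.0585, adjusted p 1.36e-13) for shTRIB3-2. CDC20, the activator of the anaphase ubiquitin ligase, stood at 60.6 ± 2.35 FPKM for shCtrl, 15.1 ± 0.38 for shTRIB3-1 and 4.58 ± 0.0723 for shTRIB3-2 (SD, n = 3 each) and gave -1.998 (SE 0.0394, adjusted p 2.18e-12) for shTRIB3-1 and -3.70 (SE 0.0394, adjusted p 1.07e-14) for shTRIB3-2. PKMYT1, the kinase that places inhibitory phosphates on CDK1, stood at 6.08 ± 0.206 FPKM for shCtrl, 1.85 ± 0.206 for shTRIB3-1 and 0.678 ± 0.0312 for shTRIB3-2 (SD, n = 3 each) and gave -1.67 (SE 0.0911, adjusted p 7.42e-09) for shTRIB3-1 and -2.99 (SE 0.0911, adjusted p 3.82e-11) for shTRIB3-2. PKMYT1 and CDC25C, a brake and an accelerator of CDK1, were thus called lower with both hairpins. Opposite-strand genes overlap 31.9% of the exon bases of PKMYT1. WEE1, another kinase gene of this list that brakes CDK1, stood higher and was not called. Its level was 13.71 ± 0.3205 FPKM for shCtrl, 22.36 ± 0.3069 for shTRIB3-1 and 20.82 ± 0.6897 for shTRIB3-2 (SD, n = 3 each). By adjusted p alone 9 of the 18 fell and 7 rose with shTRIB3-1, against 41.5% and 32.9% of tested genes. With shTRIB3-2, 11 fell and 5 rose, against 40.5% and 35.4%. The list medians were -0.125 and -0.127.

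The known target genes of E2F and of MuvB complexes were mostly called lower. Of 32 G1/S target genes, which copy DNA and supply its building blocks, 27 (84.4%) were called lower with shTRIB3-1 and 28 (87.5%) with shTRIB3-2, against 6.1% and 6.27% of all tested genes, and none higher, with median log2 fold changes of -1.64 and -2.52. Of 33 G2/M target genes, which build and run the spindle, 31 and 32 were called lower, none higher, with medians of -1.87 and -3.03. Between hairpins 16 G1/S and 21 G2/M genes were called lower with shTRIB3-2, against 1.79% of all tested genes, and a pseudocount of 1 reduced these counts to 4 and 9. TK1, thymidine kinase, stood at 39.8 ± 1.01 FPKM for shCtrl, 6.39 ± 0.107 for shTRIB3-1 and 1.900 ± 0.222 for shTRIB3-2 (SD, n = 3 each), with log2 fold changes of -2.62 (SE 0.068, adjusted p 1.55e-11) for shTRIB3-1 and -4.32 (SE 0.068, adjusted p 2.35e-13) for shTRIB3-2. AURKB, the Aurora kinase of the centromere, stood at 14.9 ± 0.774 FPKM for shCtrl, 2.91 ± 0.355 for shTRIB3-1 and 0.511 ± 0.197 for shTRIB3-2 (SD, n = 3 each), with log2 fold changes of -2.32 (SE 0.188, adjusted p 2.57e-07) for shTRIB3-1 and -4.67 (SE 0.188, adjusted p 3.93e-10) for shTRIB3-2.

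The promoter letters were compared between the members by response, as a description. E2F letters stood in 7 of the 13 promoters available for genes called lower with both hairpins, or 53.8%, and in 7 of 22, or 31.8%, of those of the other tested members. CHR letters stood in 3 (23.1%) and 5 (22.7%), and CCAAT letters in 7 (53.8%) and 9 (40.9%). A pattern of 4 runs of 3 G with gaps of 1 to 7 bases is the textbook form of a G-quadruplex sequence. On either strand it stood in 4 of 13 (30.8%) and 4 of 22 (18.2%) of these promoters, and in 33.6% of the promoters of tested genes. No difference between these shares was tested. Over all tested genes with a window, E2F letters stood in 31.3% of 419 called lower with both hairpins and in 12.4% of 363 called higher, CHR letters in 27.0% and 11.3%, CCAAT letters in 50.4% and 25.3%, and the G-quadruplex pattern in 30.1% and 40.2%. Promoters for CCND1, CCND2, CCNE2, CDK2, CDKN1C, E2F5, E2F8 and FOXM1 were not analysed here.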

How the data were processed

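RNA-seq values of 9 HepG2 libraries (3 each of shCtrl, shTRIB3-1 and shTRIB3-2, grouped by their labels) were used. The authors deposited FPKM, with 1 row per gene symbol and 1 column per library. According to the study's methods, STAR aligned the reads to GRCh38 and differential expression was tested by the authors with DESeq2. The submitters' processing notes name HTSeq and R 3.2.0. The annotation release and the strand setting of counting are not given in the sources used here, and the methods and the labels name different library kits. FPKM does not correct for composition, so large changes of abundant genes shift all others.

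Genes with an FPKM of at least 1 in at least 3 of 9 libraries were fitted on log2(FPKM + 0.1) with limma 3.58.1 in R 4.3.3: 3 group means, empirical Bayes with a mean-variance trend, two-sided p adjusted by Benjamini and Hochberg over 11265 genes. A call needed an adjusted p under 0.05 and an absolute log2 fold change above 1. Fragments per gene were solved from the FPKM as whole numbers, with a tolerance of 0.02. Without molecular identifiers, counting statistics understate the error of a library. The scripts were tested on simulated data. Family shares were compared by exact permutation. The 44 genes, the other lists, the motifs and the markers were chosen with earlier results of these data known. Named genes are the 44, TRIB3, CDKN1A and, from each of the 4 other pathway lists, the 3 tested genes with the largest mean change. RBBP4, WEE1, ALB, TTR, FGB, LYVE1, PECAM1, VWF, DES, ACTA2 and SOX9 were singled out after their values were seen. Alternatives covered the pseudocount, the filter, 3 scalings, limma-voom on fragments, a replicate block, a fit of only the groups compared and leaving out each library. Gene positions and overlaps are from GENCODE on GRCh38, and promoters from RefSeq.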

Additional observations from a re-analysis of the deposited data

Results flagged for a closer look

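By a direct test, 30 of the 41 tested genes differed between the hairpins at an adjusted p under 0.05. Only 5 of them are given here, the 4 called lower and E2F5. They are not the 5 largest differences, as CDC25C at -0.98 is left out. Values are log2 fold changes of shTRIB3-2 against shTRIB3-1 by limma (n = 3 libraries each). MYBL2 differed by -1.55 (adjusted p 1.85e-08), CDK1 by -1.50 (adjusted p 2.11e-08), CCNB2 by -1.47 (adjusted p 1.44e-07) and CCNB1 by -1.36 (adjusted p 7.73e-11), and for each of them all 3 shTRIB3-2 libraries lay below all 3 shTRIB3-1 libraries. E2F5 differed by 0.60 (adjusted p 6.69e-06), with opposite directions against shCtrl. TRIB3 itself was lower with shTRIB3-2 by -0.71 (adjusted p 9.54e-09), and the part of its level in these differences was not tested.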

How the results depend on the processing

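Over the alternatives, 10 to 19 of the cell cycle genes were called lower with shTRIB3-1 (16 as reported), 14 to 22 with shTRIB3-2 (21), 10 to 18 with both (16) and 4 to 6 between the hairpins (4), and CDKN2B was called higher with both hairpins in each. A filter at FPKM of at least 5 gave 10 lower with shTRIB3-1 and 10 with both, by testing fewer genes. No called value changed direction. Whether the replicate numbers pair the libraries was not settled. Correlations of deviations between libraries of the same number ran from -0.074 to 0.093, and of different numbers from -0.076 to 0.048. Between shTRIB3-1 and each other group, every same-number value was above every different-number value, though all were small. With the replicate block 16 and 21 members were called lower, as without it. LIN37 with shTRIB3-2 then passed the adjusted p threshold (0.18, adjusted p 0.0218). Over all tested genes, shTRIB3-1 gave 687 lower and 607 higher calls as reported, 404 and 376 with a pseudocount of 1, 914 and 1085 with no filter and 407 and 338 at FPKM of at least 5, and shTRIB3-2 gave 706 and 683, against 419 and 382 at FPKM of at least 5. Between hairpins the calls were 202 lower and 32 higher, 80 and 4 with a pseudocount of 1, 352 and 65 with no filter and 119 and 7 at FPKM of at least 5. Among the cell cycle genes, scaling moved calls near the threshold. A pseudocount of 1 also ended a call further from it, that of LIN9 with shTRIB3-2 (-1.56 as reported, -0.81 with it). The cause was not tested. Depth limits CCNE2, CDC25C, CDKN1C, CDKN2A, CDKN2C, E2F8 and LIN9, which each had under 100 fragments in 1 or more knockdown libraries.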
